A study of Mus musculus with 6 samples.

Results

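A set of 10 genes that control the growth and hypertrophy of chondrocytes were examined for the binding of Bapx1 and Sox9, out of 19443 protein-coding genes of the annotation. They are the receptors Fgfr1, Fgfr2 and Fgfr3, the ligand Fgf18, the hormone-like ligand Pthlh and its receptor Pth1r, the transcription factors Mef2c, Mef2d and Trps1, and the deacetylase Hdac4. The genes were chosen by name, with earlier results of these data known. For each, the gene body was extended by 100 kb on either side, and every deposited peak whose summit fell in that window was taken, together with the sequenced tags at these summits and at the transcript starts. The windows covered 2.89 Mb in all.

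Chromatin immunoprecipitation with sequencing (ChIP-seq) had been made in 6 libraries, 1 per condition, so no error between replicates exists and no p-value was computed. Each p and false discovery rate below is the one deposited for a peak by the peak caller, which compares 1 ChIP library with its control. The vertebral column of CD1 mouse embryos at day 12.5 (E12.5) gave a Bapx1 library, from embryos whose Bapx1 carries an S-peptide tag and with an antibody to that tag, and a control in which the same antibody was used on untagged wildtype embryos. It also gave a Sox9 library, with an antibody to the endogenous protein, and an IgG control, and the labels of this pair name limb beside the vertebral column. NIH3T3, a mouse fibroblast line and not a cartilage cell, gave a library of Bapx1 overexpressed with a V5 tag, and a control with the V5 antibody whose cells are labelled both as wild type and as carrying empty vector. Vertebral columns of many embryos were pooled for the Bapx1 pair. The libraries held between 8901095 tags (Bapx1 in NIH3T3) and 24853758 tags (Bapx1 in the vertebral column) at distinct positions. These assays measure tags on DNA and not RNA, so the cell types in the dissected tissue were not checked by marker expression.

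In a growing cartilage element, chondrocytes divide, stop dividing, and then enlarge as hypertrophic cells. Signals from Fgf18 through Fgfr3 restrain their division, and Pthlh, acting on Pth1r, delays their hypertrophy. Mef2c and Mef2d activate the hypertrophic programme and Hdac4 binds and represses Mef2 factors, whereas Trps1 is a GATA-type zinc finger repressor of the growth plate. Bapx1 (also Nkx3-2) is a homeodomain repressor of the sclerotome, and Sox9 is the factor that cartilage formation depends on.

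The windows held 5 Bapx1 peaks of the vertebral column, near 4 of the 10 genes, and 32 Bapx1 peaks of NIH3T3, near 10 of the 10. Of all genes, 26.1% had a vertebral column peak and 83.0% an NIH3T3 peak in a window made the same way. After the correction of position described further on, 15 Sox9 peaks lay near 6 of the 10 genes, beside 29.2% of all genes. Sox9 peaks were the densest relative to other genes, at 5.20 per Mb of these windows against 1.70 per Mb of the windows of all genes. The windows of Fgfr3 and Mef2c held 4 each of these 15 peaks. Their median false discovery rate was 56.7%, against 39.1% over the list, and 4 of the 15 had a p of at most 1e-10, beside 39.6%. For Bapx1 the densities were 1.73 against 1.27 per Mb in the vertebral column, and 11.1 against 10.1 per Mb in NIH3T3.

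**Figure D1:**
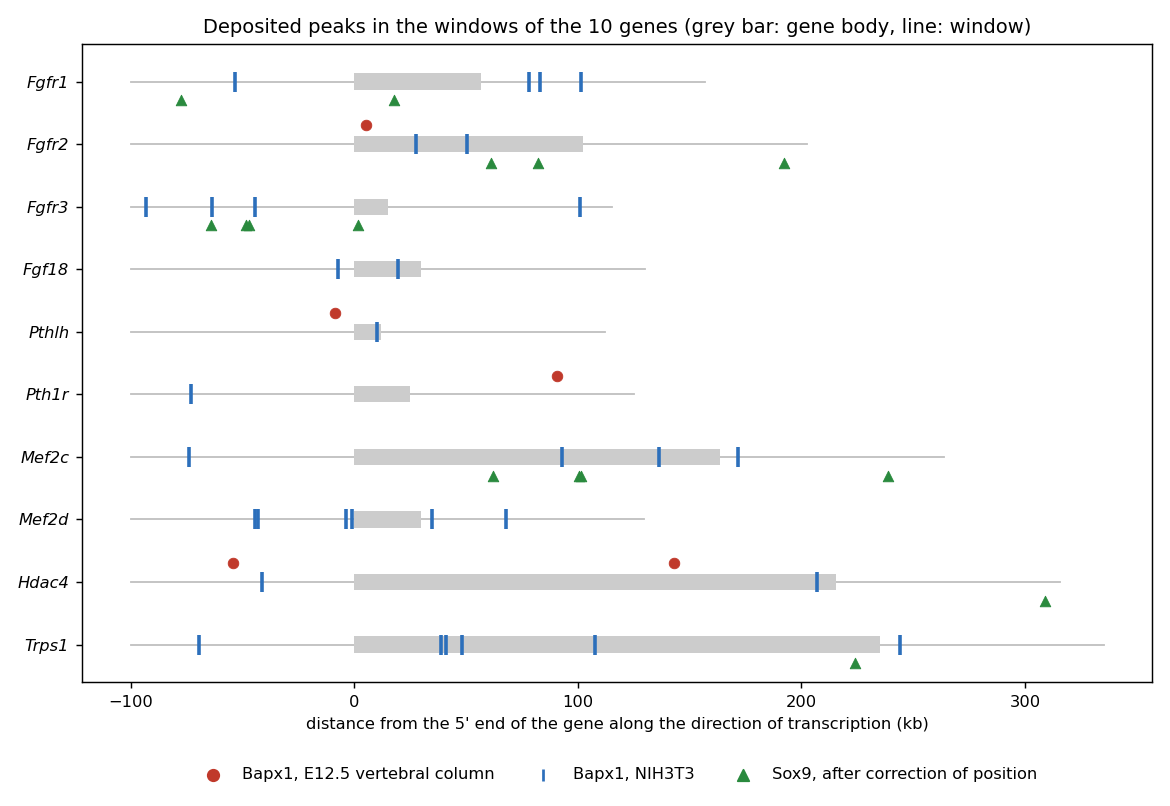
Summits of the 3 deposited peak lists in the windows of the 10 genes, placed by their distance in kb from the 5′ end of the gene along the direction of transcription. Circles are Bapx1 peaks of the vertebral column, ticks are Bapx1 peaks of NIH3T3 and triangles are Sox9 peaks after the correction of position; the 5 circles lie at Fgfr2, Pthlh, Pth1r and Hdac4, and 11 of the 32 ticks lie inside a gene body.

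The sequences below carry the Bapx1 motif, TGAGTG or TAAGTG on either strand, nearest to the summit, in the named Bapx1 peaks that hold it within 50 bp. They are read from mm9 on the strand of that motif, with only the nearest copy in capitals and any further copy left in lower case. The first 2 are from the vertebral column and the others from NIH3T3.
Fgfr2 intron, vertebral column, chr7:137404419-137404448, plus strand: aaacacgttcatTAAGTGgcgatgagtgct
Pthlh upstream, vertebral column, chr6:147221377-147221406, minus strand: tgtttgcatacaTAAGTGtgcatacataag
Fgfr2 intron, NIH3T3, chr7:137381932-137381961, plus strand: tggcactttcatTAAGTGgtacaggaataa
Fgf18 upstream, NIH3T3, chr11:33054520-33054549, plus strand: acgacctgttcaTAAGTGttttccaattac
Pthlh intron, NIH3T3, chr6:147202388-147202417, minus strand: aactcaatctaaTAAGTGccacttagaaag
Pth1r upstream, NIH3T3, chr9:110722364-110722393, plus strand: taccatggctctTAAGTGcaagaagtgtta
Mef2c upstream, NIH3T3, chr13:83569251-83569280, minus strand: tcatggtaaattTAAGTGcttatttatatt
Mef2c intron, NIH3T3, chr13:83735976-83736005, plus strand: cattaagtgcagTAAGTGttaaggcctaaa
Mef2c downstream, NIH3T3, chr13:83814678-83814707, plus strand: tcaggtgcagatTGAGTGgcatttcactta
Hdac4 upstream, NIH3T3, chr1:94085936-94085965, plus strand: atttttctctcaTAAGTGgagttaatgact
Trps1 downstream, NIH3T3, chr15:50477312-50477341, minus strand: agttaatgatgtTAAGTGtattgtctggca
Trps1 intron, NIH3T3, chr15:50680538-50680567, plus strand: tatacctttataTGAGTGtgtatatattta

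Among the Bapx1 sequences of these windows, the longest run shared around the motif was 12 bases, ttcatTAAGTGg, between the vertebral column peak and the NIH3T3 peak of Fgfr2. All other pairs with the same form of the motif shared at most 9 bases, including the motif. The 12 bases, too, include the motif, and they are the most over all these pairs. Runs between motif sites elsewhere in the lists were not counted, so no shared element is drawn from this. The TAAGTG form was nearest to the summit in 13 of the 15 NIH3T3 summits that held a motif and in both of the vertebral column ones. The share of each form over the whole lists was not counted, so no preference is drawn from this. More than 1 copy lay within 50 bp of 7 of the NIH3T3 summits and 2 of the vertebral column ones.

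The clearest Bapx1 peak of the vertebral column lay in Fgfr2, the receptor through which several Fgf ligands act on skeletal progenitors. Fgfr2 lies on the minus strand at chr7:137307223-137409777, and the peak at chr7:137404203-137404649 was in its intron 2, 950 bp downstream of an internal transcript start and 5356 bp from the 5′ end of the gene. Within 200 bp of the summit there were 43 Bapx1 tags and 6 wildtype S-peptide tags, a ratio of 5.97 after scaling to the tags of each library, with an exact binomial 95% interval of 2.53 to 17.2, and within 500 bp the ratio was 3.33. Such intervals cover the counting error of tags only. The same place had 2 Bapx1 and 5 V5 tags in NIH3T3, and 2 Sox9 and 5 IgG tags, so neither of those ChIP libraries stood above its control there. The motif centre was 12 bp from the summit. The peak was the only one of the 5 with a p of at most 1e-10 (10 times −log10 p of 187), a threshold that 23.5% of the list passed, but its false discovery rate, which the peak caller estimates by swapping ChIP and control, was 38.9%.

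The other vertebral column peaks had between 15 and 20 tags in the deposited list and false discovery rates of 60.5% to 66.3%. The median false discovery rate over the whole list was 61.1%. Because the list itself was made from this pair of libraries, the ratio at its own summits is a description.

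At Pthlh, which encodes the ligand PTHrP, the peak at chr6:147221296-147221527 lay 8718 bp upstream of the single transcript start. It had 15 Bapx1 and 5 wildtype tags, a ratio of 2.50 whose interval (0.863 to 8.79) held 1, and 0 Bapx1 against 6 V5 tags in NIH3T3. The motif was 15 bp from the summit.

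Hdac4 had a pair of vertebral column peaks. One, at chr1:93901542-93901802 in intron 4, lay 1703 bp downstream of an internal start and had 20 Bapx1 and 9 wildtype tags, a ratio of 1.85 (0.806 to 4.62). The other, at chr1:94099232-94099509, lay 54370 bp upstream of the gene and had 19 against 3 tags, a ratio of 5.28 (1.55 to 27.8), or 2.75 within 500 bp. Neither held the motif within 50 bp, and in NIH3T3 they had 3 against 5 and 3 against 4 tags.

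The peak in the window of Pth1r, the receptor of PTHrP, lay 86162 bp from the nearest Pth1r start, at chr9:110558848-110559117, and only 55 bp upstream of a start of Ccdc12. It had 20 Bapx1 and 2 wildtype tags, a ratio of 8.33 (2.02 to 73.5), or 2.63 within 500 bp. In NIH3T3 it had 8 Bapx1 and 2 V5 tags, a ratio of 5.60 (1.12 to 54.1), or 2.57 within 500 bp, and it held no motif.

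**Figure D2:**
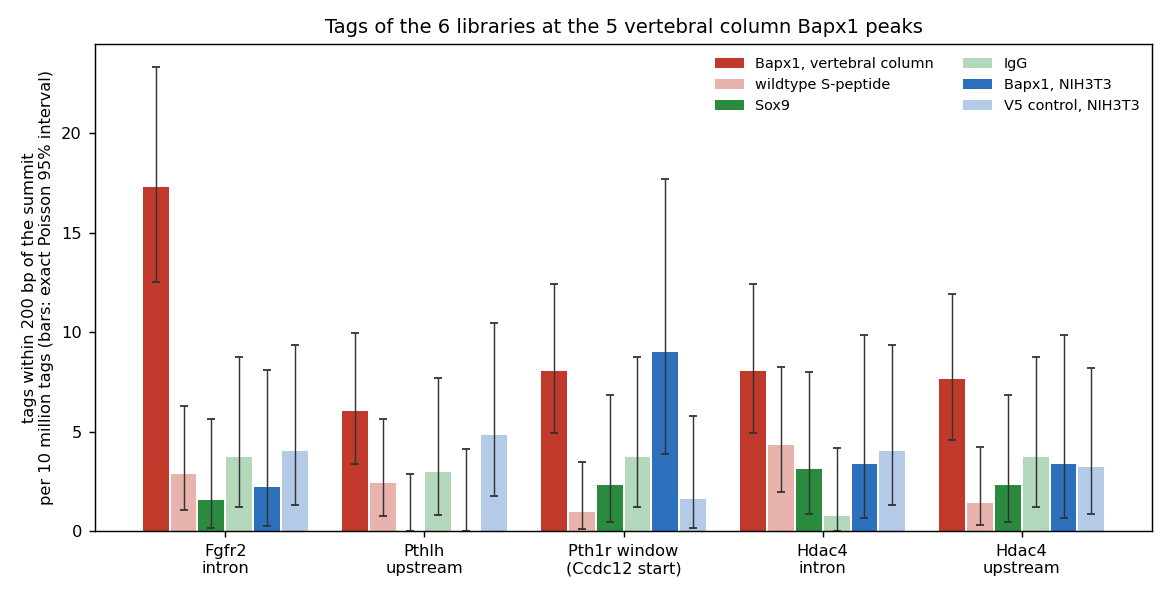
Tags within 200 bp of the summits of the 5 Bapx1 peaks of the vertebral column, per 10000000 tags of each of the 6 libraries, with exact Poisson 95% intervals (counting error only). The Bapx1 bar at the Fgfr2 peak, 17.3, is the tallest, its wildtype control stands at 2.90, and the NIH3T3 pair was called enriched at 1 of the 5, the peak in the Pth1r window, where the counts are 8 and 2 tags.

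Throughout, a place was called enriched where the scaled ratio was at least 2, the lower bound of its interval was above 1, and both libraries together held at least 10 tags. By this rule 3 of the 5 vertebral column summits were called in their own libraries, beside 84.9% of the whole list. With the NIH3T3 tags, which had no part in choosing them, 1 of the 5 was called, the one at the start of Ccdc12, beside 8.38% of the whole list, and within the deposited peak limits 0 were, beside 7.10%. With the Sox9 tags 0 of the 5 were called, beside 10.3%, and the pooled ratio over these 5 summits was 0.626 (0.279 to 1.34) against 1.64 (1.61 to 1.68) over all 2794 summits that could be placed. The motif was found at 2 of the 5 summits, 31.3% of the whole list, and in 2 of the 10 flanking windows 500 bp away, beside 10.5% of all flanks.

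In NIH3T3 the peaks of these genes had 9 to 38 tags in the deposited list, and all 32 had a false discovery rate of at most 5%, beside 97.7% of the list. Of these, 7 (21.9%) had a p of at most 1e-10, beside 21.7% of the list. The 25 that lay farther than 5 kb from any protein-coding start were 78.1%, beside 81.5% of the list. Of the 32, 11 lay in the body of the gene concerned, 2 lay within 5 kb of one of its starts, and for 21 the nearest protein-coding start belonged to it. In their own libraries 31 of the 32 were called, beside 93.5% of the list, and the exception, in the Trps1 window, had 9 Bapx1 and 4 V5 tags. Of the 26 called ratios with control tags, 16 fell by over 1.5 times within 500 bp. The one in the Fgfr3 window with 21 against 1 tags went from 29.4 to 3.78, and 3 lost their call, at Trps1 (2.02 and 1.92) and Hdac4 (2.10).

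The peak with the smallest p lay 73761 bp upstream of Mef2c, a MADS box activator of hypertrophy, at chr13:83568952-83569416. It had 26 Bapx1 and 2 V5 tags, a ratio of 18.2 (4.55 to 158) or 10.1 within 500 bp, and a motif 6 bp from the summit. In the vertebral column the same place had 4 tags in each library of the Bapx1 pair. The Mef2c window held 4 NIH3T3 peaks and each of them had the motif, which 64.4% of the list held. Those at chr13:83735883-83736125 in intron 4 and at chr13:83814550-83814880, downstream of the gene, had 10 against 0 and 11 against 1 tags. Mef2c lies at chr13:83643033-83806684. Over its window the density of V5 tags was 0.782 of the genome median, the lowest of the 10 genes, and that of NIH3T3 Bapx1 tags was 0.922.

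Mef2d is a relative of Mef2c in the same pathway, and a difference in motif between them was not tested. It lies at chr3:87946294-87976008 and had 6 NIH3T3 peaks. None of these held the motif within 50 bp, as none of the 4 in the Fgfr3 window did, beside 64.4% of the list. The share was 45.4% for summits of the list within 5 kb of a start, where some peaks of Mef2d lay. Its peaks were also the only ones close to a start of their own gene: the peak at chr3:87942110-87943257, 3777 bp upstream, had the most deposited tags of all 32 (38, with 18 Bapx1 and 3 V5 tags within 200 bp of the summit), and the one at chr3:87944826-87945491, 1021 bp upstream, had 15 against 6 tags, a ratio of 3.50 (1.28 to 11.0). The peak at chr3:88013938-88014385 had 15 against 2 tags. None of these 3 places was called in the vertebral column, where Bapx1 and wildtype tags were 8 and 6, 12 and 8, and 7 and 9.

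For Trps1, at chr15:50486307-50721587, 5 of the 6 NIH3T3 peaks had the motif, beside 64.4% of the list, and 4 lay in the gene body. The strongest by p were the one at chr15:50477163-50477471, downstream of the gene, with 13 against 6 tags, and those at chr15:50680405-50680805 in intron 1 and chr15:50673103-50673350 in intron 2, with 11 against 3 and 10 against 3 tags. Of these, the peaks with 13 against 6 and 10 against 3 tags lost their call with scaling to the tags within 100 kb. Over the Trps1 window the tag density was 1.30 of the genome median for NIH3T3 Bapx1 and 1.01 for V5. Vertebral column ratios at the 6 Trps1 places ran from 0.714 to 2.08. At Hdac4, at chr1:93829334-94044970, the peak in intron 23 at chr1:93837848-93838563 had 11 against 3 tags and no motif, and the peak at chr1:94085830-94086227, 41.0 kb upstream, had the same tags and a motif 19 bp from the summit. The upstream peaks of Hdac4 in the vertebral column and in NIH3T3 were 13370 bp apart.

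Pthlh, at chr6:147200623-147212689, had 1 NIH3T3 peak, in intron 3 at chr6:147202246-147202556, with 18 Bapx1 and 2 V5 tags, a ratio of 12.6 (3.01 to 112), or 3.50 within 500 bp. The vertebral column had 7 Bapx1 and 0 wildtype tags there, below the minimum of 10 tags. The nearest motif lay 33 bp from the summit. For Pth1r, at chr9:110624592-110649649, the peak 72746 bp upstream at chr9:110722174-110722560 had 10 against 1 tags, a motif 16 bp from the summit, and 8 against 9 tags in the vertebral column.

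Among the Fgf genes, Fgfr2 had its NIH3T3 peaks inside the gene. The one in intron 2 at chr7:137381830-137382229 had 17 Bapx1 and 3 V5 tags, a ratio of 7.93 (2.29 to 42.2) or 4.40 within 500 bp, with the motif 1 bp from the summit, and lay 22476 bp from the vertebral column peak of the same intron. The one in intron 4 at chr7:137359229-137359630 had 11 against 1 tags. Fgf18, at chr11:33017430-33047400, had a peak 7167 bp upstream, inside intron 9 of Npm1, at chr11:33054450-33054863 (11 against 3 tags, with the motif) and one in its own intron 3 at chr11:33027337-33027687 (9 against 2 tags, without it).

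The NIH3T3 peaks in the windows of Fgfr1, at chr8:26629264-26686186, and Fgfr3, at chr5:34064373-34079712, lay outside the gene bodies, and most were near the starts of other genes. At Fgfr1, the peak at chr8:26575821-26576669, 48093 bp upstream of a start, had 16 Bapx1 and 4 V5 tags, and those at chr8:26712171-26712671 (18 against 3 tags) and chr8:26707263-26707754 (13 against 3) were 252 bp upstream of a start of Whsc1l1 and 448 bp downstream of one of Letm2. At Fgfr3, peaks at chr5:33971168-33971638 (21 against 1 tags) and chr5:34000419-34001046 (17 against 0) lay 195 bp from a start of Fam53a and 58 bp from one of Tacc3, and the peak at chr5:34020087-34020443 in intron 15 of Tacc3 had 10 against 0 tags. None of the 4 peaks of the Fgfr3 window held the motif, which 64.4% of the list held. Most of these 4 lay within 5 kb of a start, where the share over the list was 45.4%.

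**Figure D3:**
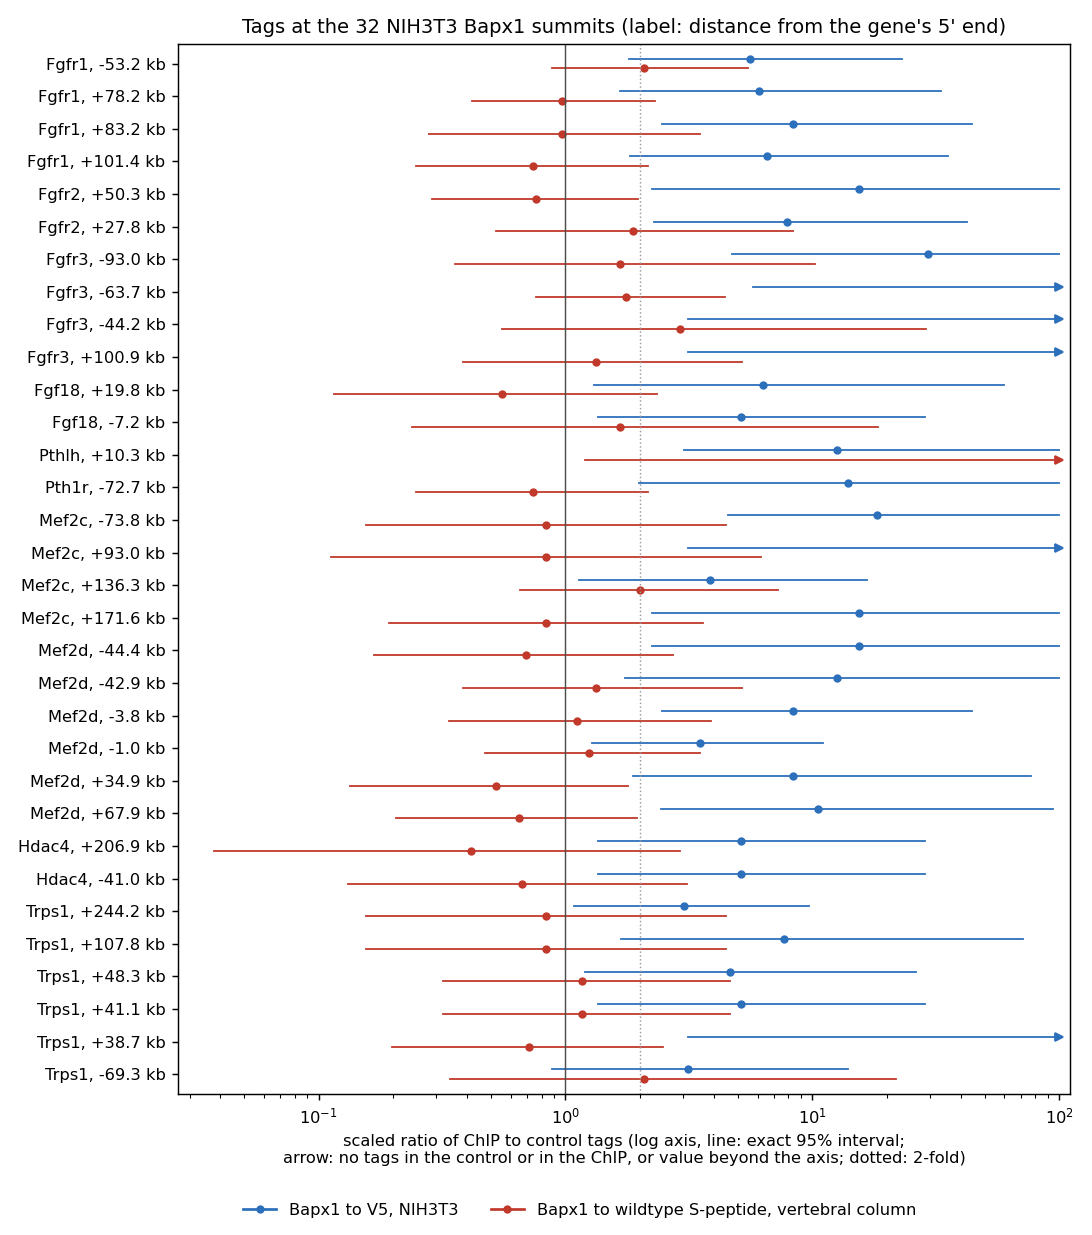
Scaled ratios of ChIP to control tags (log axis) at the 32 NIH3T3 Bapx1 summits, labelled by gene and distance from its 5′ end, in NIH3T3 (Bapx1 to V5) and in the vertebral column (Bapx1 to wildtype S-peptide), with exact 95% intervals that end at the axis where they run past it. The NIH3T3 ratios chose these places and all exceed 1, while 0 of the 32 vertebral column ratios were called, beside 1.93% of the list. Of these 32 ratios 17 lie below 1 and 15 above it, beside 12772 of 23205 above 1 over the list.

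With the vertebral column tags, which had no part in choosing the NIH3T3 summits, 0 of the 32 were called, beside 1.93% of the 23205 summits of the list. Within 500 bp in place of 200 bp 3 were, one each at Pthlh (25 Bapx1 and 8 wildtype tags), Mef2c (21 and 7) and Mef2d (30 and 10), beside 2.84% of the list within 500 bp. Pooled over the 32 summits, there were 239 Bapx1 and 181 wildtype tags, a ratio of 1.10 (0.903 to 1.34), against 1.12 (1.11 to 1.13) over the whole list. The largest number of vertebral column Bapx1 tags was at the upstream Fgfr1 peak, with 20 Bapx1 and 8 wildtype tags, a ratio of 2.08 (0.879 to 5.47). The same peak was the only one of the 32 called with the Sox9 tags, at 11 Sox9 and 3 IgG tags (3.82, interval 1.01 to 21.3), beside 0.429% of the list.

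The motif occurred at 15 of the 32 NIH3T3 summits, beside 64.4% of the list, and in 5 of the 64 flanking windows, beside 10.7% of all flanks. All 15 lay farther than 5 kb from any protein-coding start. Of the summits beyond that distance 15 of 25 (60.0%) held it, and of those within it 0 of 7 did. Over the whole list the shares were 68.7% beyond 5 kb and 45.4% within it. This division by distance was chosen after the values were seen.

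The positions in the Sox9 and IgG libraries were not those of mm9, although the labels name that build, and they were moved before use. The displacement was measured from the tags alone, by matching the binned tags of this pair to those of the Bapx1 pair. It was 0 bp at Fgf18 and between 1500 bp at Trps1 and 7352350 bp at Fgfr2 elsewhere. In each gene window the clear matches centred there agreed to 100 bp, from 4 matches at Fgfr3, Fgf18, Pthlh and Pth1r to 9 at Trps1. At Mef2c 6 of 8 windows were clear, and the displacement changed from 338300 bp over the gene to 333475 bp downstream of it. At Fgfr2 all 6 matches gave the same value, but they were found only in a wider search that was added after the first had failed there, and the weakest of them exceeded the next best place by a factor of 1.53. As a check, the sequence, which had no part in the displacement, was searched for the Sox motif, A or T, A or T, CAA, A or T, G. The motif was within 50 bp of 34.5% of the 3702 moved summits and of 13.6% of their flanks. This share is over the whole list and cannot decide the displacement at a single gene. At Fgfr2 no moved summit held the motif within 50 bp.

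Moved in this way, the strongest Sox9 peak lay in intron 8 of Fgfr2, at chr7:137327304-137327920. It had 73 Sox9 and 4 IgG tags within 200 bp of the summit, a ratio of 19 (7.12 to 71.7), and a false discovery rate of 0%. Fgfr2 also had a Sox9 peak in intron 4, at chr7:137348229-137348569, with 16 against 1 tags (a ratio of 16.7, or 4.0 within 500 bp), and one downstream at chr7:137217608-137217929, with 15 against 4. Fgfr1 had the next strongest, in intron 2 at chr8:26646920-26647533, with 52 Sox9 and 2 IgG tags, a ratio of 27.1 (7.14 to 230) or 11.8 within 500 bp and a false discovery rate of 0.620%, and one 72410 bp upstream at chr8:26551563-26552063, with 24 against 2 tags. These peaks of Fgfr1 intron 2 and Fgfr2 intron 8 were the only 2 of the 15 with a false discovery rate of at most 5%, beside 17.9% of all moved peaks. The rates of the other 13 ran from 8.16% to 100%. Neither of the former held the Sox motif within 200 bp of the moved summit.

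Mef2c had 4 Sox9 peaks. A pair in intron 4, at chr13:83743225-83743653 and chr13:83744235-83744636, had 17 against 1 and 19 against 2 tags. The one at chr13:83881553-83881901, downstream of the gene, had 20 against 0 tags and a false discovery rate of 25.9%. The one in intron 2 at chr13:83705007-83705284 had 11 against 0 and a false discovery rate of 100%. The downstream one lies where the displacement changes, and the value used was given by 2 of the 4 clear matches within 150 kb of it. With the value over the gene it would lie 4825 bp away, so its mm9 position and the Bapx1 tags, sequence and annotation there are uncertain. Its Sox9 and IgG counts were taken at the deposited position and do not depend on that. Fgfr3 also had 4, of which those at chr5:34000356-34000758, chr5:34015806-34016204 and chr5:34017166-34017446 had 18 to 19 Sox9 and 5 IgG tags and lay in or beside Tacc3 and Tmem129. The one inside Fgfr3, at chr5:34065908-34066163 and 183 bp from a transcript start, had 13 against 9 tags, a ratio of 1.51 (0.596 to 3.99). The false discovery rates of the 4 peaks of the Fgfr3 window ran from 90.4% to 100%. Hdac4 had 1, in intron 1 of the neighbouring Twist2 at chr1:93735859-93736238, with 17 against 2 tags, and Trps1 had 1, in intron 4 at chr15:50497457-50497714, with 13 against 0. Fgf18, Pthlh, Pth1r and Mef2d had none.

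The 4 moved Sox9 summits with the whole Sox motif within 50 bp are given here from mm9, the motif in capitals, on the strand of the motif. The summit inside Fgfr3 had a motif centred at 50 bp that reached past this window and was not counted.
Fgfr3 upstream, Tacc3 intron, chr5:34015957-34015985, plus strand: tagtgcctcagAACAAAGaccctattgta
Mef2c intron, chr13:83705106-83705134, plus strand: aatagctctatAACAAAGtaactacagag
Hdac4 downstream, Twist2 intron, chr1:93735980-93736008, minus strand: ggtttctacccTTCAAAGggctattgtag
Trps1 intron, chr15:50497505-50497533, plus strand: tgccaaaaaaaTACAATGgttataattgt

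Of the 15 moved summits 14 were called in the Sox9 pair, beside 93.2% of all moved summits, and the exception was the one inside Fgfr3. The Sox motif was at 4 of the 15, beside 34.5%, and in 6 of 30 flanks, beside 13.6%. With the Bapx1 tags of the vertebral column 2 of the 15 were called, beside 13.5% of the moved summits: the downstream Fgfr2 peak, with 22 Bapx1 and 5 wildtype tags (3.67, interval 1.35 to 12.4, or 2.03 within 500 bp), and the peak in the Hdac4 window, with 19 and 6 tags (2.64, interval 1.01 to 8.07). Both have a false discovery rate of 100% in the deposited Sox9 list, and within the deposited peak limits 0 of the 15 were called, beside 12.5%. Within 500 bp of the summits 2 were again called, beside 14.3%, but the Hdac4 peak (1.32, interval 0.716 to 2.47) was replaced by one of the pair in Mef2c intron 4 (24 and 8 tags, 2.50, interval 1.09 to 6.43). The strongest Sox9 peak, in Fgfr2 intron 8, had 14 Bapx1 and 6 wildtype tags (1.94, interval 0.702 to 6.17). Pooled over the 15 summits the Bapx1 ratio was 1.60 (1.22 to 2.13), and over all moved summits it was 1.61 (1.58 to 1.63). With the NIH3T3 tags 1 of the 15 was called, beside 2.40%, at the boundary of Tacc3 and Tmem129 in the Fgfr3 window, with 15 Bapx1 and 4 V5 tags. This peak, whose false discovery rate in the Sox9 list was 99.0%, overlapped a Bapx1 peak of NIH3T3. The share of all moved Sox9 peaks that overlap a Bapx1 peak was not computed, so no count of overlaps is given.

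**Figure D4:**
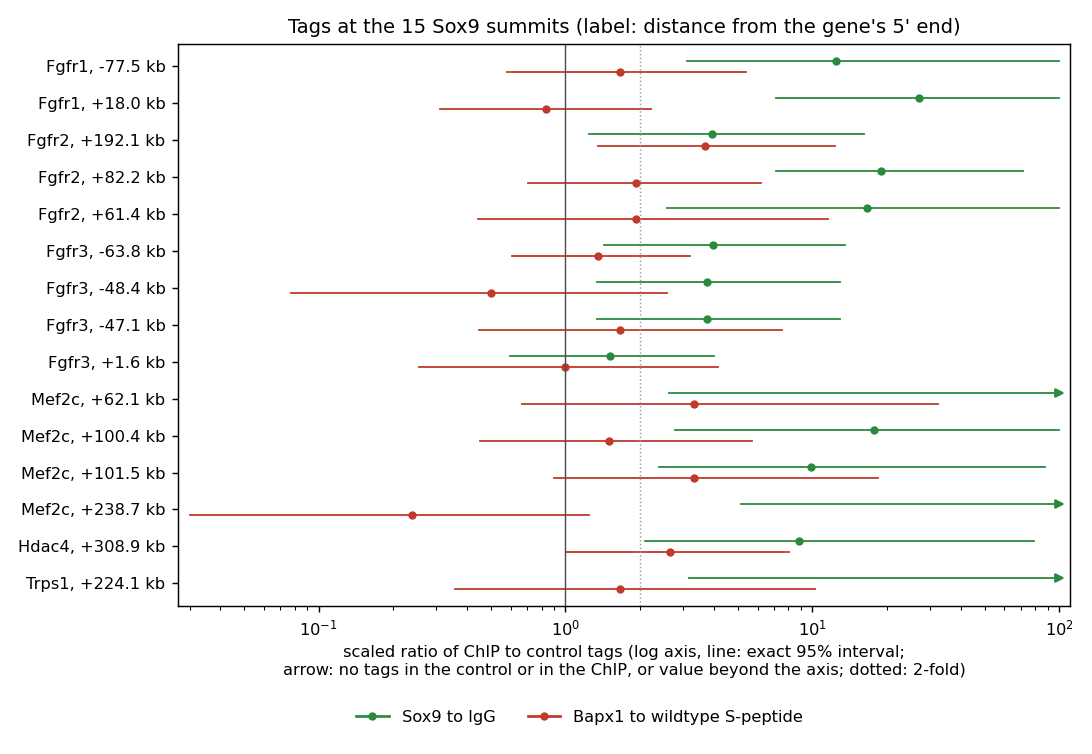
Scaled ratios of ChIP to control tags (log axis) at the 15 moved Sox9 summits, labelled by gene and distance from its 5′ end, for Sox9 to IgG and for Bapx1 to wildtype S-peptide, with exact 95% intervals that end at the axis where they run past it. The Sox9 ratios chose these places, and the Bapx1 interval lies above 1 at 2 of the 15, the downstream Fgfr2 peak (3.67) and the peak in the Hdac4 window (2.64). These 2 were called with the Bapx1 tags, beside 13.5% of all moved summits, and both have a false discovery rate of 100% in the Sox9 list.

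At the transcript starts no gene of the 10 was called for Bapx1. Tags within 500 bp of all protein-coding starts of a gene were joined, and 0 of the 10 were called in the vertebral column, beside 2.70% of all genes, and 0 of the 10 in NIH3T3, beside 14.7%. In the vertebral column the scaled ratios ran from 0.745 at Pthlh (17 Bapx1 and 19 wildtype tags) to 1.60 at Mef2d (25 and 13), with a median of 1.03 against 1.04 over all genes. The intervals of all 10 genes held 1 at this width, whereas within 1000 bp that of Fgfr2 did not (1.61, interval 1.18 to 2.23). That wider window takes in the summit of the vertebral column peak of Fgfr2, 950 bp from its internal start. The same libraries chose that peak, so the wider ratio is a description.

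In NIH3T3 the ratios ran from 0.122 at Fgfr3 to 2.33 at Mef2c (15 Bapx1 and 9 V5 tags, interval 0.956 to 6.04, called within 1000 bp at 33 and 20 tags, beside 18.5% of all genes), with a median of 1.10 against 1.4 over all genes. Fgfr1 and Fgfr2 had ratios of 1.72 (32 and 26 tags) and 1.73 (26 and 21 tags), with intervals that held 1 (0.994 to 3.01 and 0.937 to 3.24). They did not hold 1 under some other settings: at Fgfr1 the interval was 1.03 to 3.12 with scaling outside the peaks and 1.04 to 3.09 with all tags kept, and at Fgfr2 it was 1.10 to 2.98 within 1000 bp. At Fgfr3 the starts span 3049 bp with their margins and had 2 Bapx1 and 23 V5 tags, an interval of 0.0139 to 0.492, which lay below 1, and within 1000 bp the ratio was 0.272 (7 and 36 tags). By the same rule turned around, 1.91% of all genes were lower in Bapx1 than in V5, and Fgfr3 was the only one of the 10. In the vertebral column Fgfr3 had 49 Bapx1 and 52 wildtype tags, and 0 of the 10 genes were lower in Bapx1 than in wildtype, beside 1.42% of all genes. The Fgfr3 starts are 63.8% G or C, as in the 4875 genes richest in these bases (59.7% to 80.8%), whose median NIH3T3 ratio was 1.31, and the part of base composition in the Fgfr3 value was not tested.

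Taken singly, 2 of the 19 start regions were called in NIH3T3, beside 12.8% of all single regions, and 0 in the vertebral column, beside 2.70%. One was the internal start of Fgfr2 at chr7:137404871-137405871, next to the vertebral column peak described above, with 10 Bapx1 and 2 V5 tags (7.0, interval 1.49 to 65.7) and 18 Bapx1 and 11 wildtype tags in the vertebral column. The other was the internal start of Hdac4 at chr1:93902932-93903932, near its intron 4 peak of the vertebral column, with 10 against 4 tags (3.50, interval 1.01 to 15.3) in NIH3T3 and 12 against 8 in the vertebral column. The regions that hold the 5′ ends of these genes had 16 against 19 tags at Fgfr2 and 3 against 12 at Hdac4 in NIH3T3. In the controls the median over the 19 regions was 1.21 times the window mean for wildtype S-peptide and 1.23 times for V5. Single regions ran from 0.576 to 2.30 for wildtype S-peptide and from 0.384 to 2.47 for V5. At the 2 called regions the V5 control lay below its window mean, at 0.384 (Fgfr2) and 0.506 (Hdac4) times it. NIH3T3 Bapx1 tags there were 2.69 and 2.05 times theirs, so these ratios rest partly on low control counts.

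**Figure D5:**
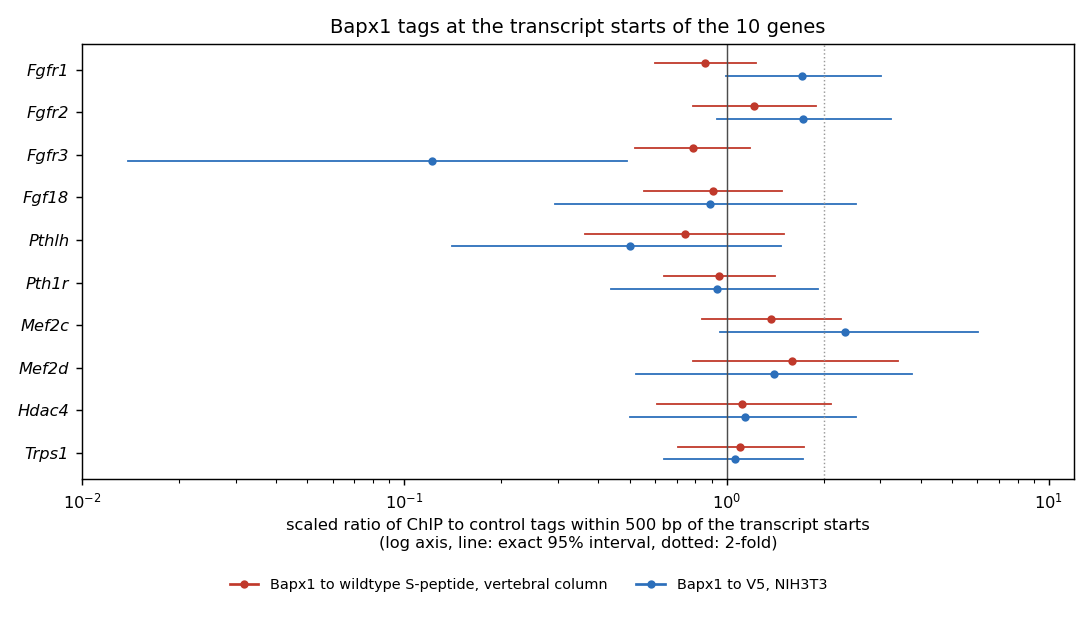
Scaled ratio of Bapx1 to control tags within 500 bp of the transcript starts of each of the 10 genes (log axis), in the vertebral column and in NIH3T3, with exact 95% intervals. Ratios lie between 0.745 and 1.60 in the vertebral column, and Fgfr3 in NIH3T3, at 0.122, is the only interval that lies wholly to one side of 1.

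The other genes of the same pathways, among them Fgf ligands, Spry and Dusp6 inhibitors, class II deacetylases and hypertrophic markers such as Col10a1, were counted for comparison. Of 40 listed, 39 were in the annotation. A vertebral column Bapx1 peak lay in the window of 14 (35.9%, beside 26.1% of all genes), an NIH3T3 peak in that of 35 (89.7%, beside 83.0%) and a moved Sox9 peak in that of 16 (41.0%, beside 29.2%). At the transcript starts 0 of the 39 were called in the vertebral column, beside 2.70% of all genes, and 5 in NIH3T3, beside 14.7%, namely Fgf10, Dusp6, Etv4, Prkaca and Col10a1.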

How the data were processed

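Per the labels and methods, the authors mapped single-end reads to mm9 (which the Sox9 and IgG positions did not match) with the Illumina Genome Analyzer Pipeline, kept unique hits with at most 2 mismatches, and deposited tag positions (35 bp, not normalized) and MACS peak lists (p cutoff 1e-05, each ChIP against its control). Per the file headers these lists give the count of tags in a peak, a score (the −log10 of p, times 10), a ratio of ChIP tags to local background, and a false discovery rate as a percent. No peaks were called again here.

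Gene bodies were the spans of CCDS transcripts in the GENCODE annotation of NCBIM37 (mm9), since 1 Fgfr2 transcript stretches the full record over several Mb. Tag centres on chromosomes 1 to 19, X and Y were counted within 200 bp of summits and 500 bp of transcript starts, 1 tag per position and strand (this removed 2.36% and 6.53% of the NIH3T3 tags and 0 others), and ratios were scaled to each library's tags. Intervals are exact conditional binomial (Clopper-Pearson, 95%) and cover counting error only. A place was called at a ratio of at least 2, a lower bound above 1 and at least 10 tags.

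The Sox9 and IgG positions were moved by a displacement found by correlating tags in 50-bp bins (at most 3 tags each) in 500-kb windows stepped by 50 kb, over 4 Mb and, where no match was clear, over 12 Mb, a search widened after the data were seen. A match was clear when it exceeded any other by a factor of 1.5, with at least 1000 tags. Of 50495 windows 49310 were clear, and 3702 of 3722 peaks were placed, where at least 2 clear matches within 150 kb agreed to 100 bp. No conversion between builds was used.

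All 10 genes were named. Of the peaks of a window, all were named where there were at most 3, otherwise the 3 with the smallest p and the 1 nearest to a start of the gene. The members and lists were chosen with earlier results of these data known. Python 3.11.15, numpy 2.4.6, scipy 1.17.1 and samtools 1.23.1 were used, and the scripts were tested on simulated data. Other windows, thresholds, scalings and motif settings were tried as alternatives.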

Additional observations from a re-analysis of the deposited data

How the results depend on the processing

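No paired analysis was possible because each condition has 1 library, and for the same reason no library could be left out. Of 69 alternative counts 46 stayed within 1.5 times the reported value, and these include counts of 0 that stayed 0. Of 460 alternative ratios at single summits and starts (115 ratios, leaving out 9 with 0 control tags) 42 moved by over 1.5 times, each with the wider window. Keeping all tags could not change the embryo ratios, as those libraries held no repeated tags. With the wider window 41 of 95 summit ratios and 1 of 20 start ratios moved by over 1.5 times. Of 43 called summit ratios 29 fell by that much within 500 bp and 4 lost their call, and 2 of the 460 left the interval of the reported ratio, at Fgfr3 (29.4 to 3.78 in NIH3T3) and Mef2d (0.521 to 2.50 in the vertebral column). The NIH3T3 summits were added to this comparison after seeing the data. Local scaling ended 3 calls, at Trps1 (2) and Hdac4. With 50 kb in place of 100 kb the vertebral column Bapx1 peaks fell from 5 to 3, in 3 genes (16.7% of all genes had one), and with 200 kb they were 10, in 6 genes (40.6%). At a p of at most 1e-10 there remained 1 vertebral column peak in 1 gene, 7 NIH3T3 peaks in 6 genes and 4 Sox9 peaks in 3 genes, beside 23.5%, 21.7% and 39.6% of the lists and 7.12%, 37.2% and 13.6% of all genes. At a false discovery rate of at most 50% there was 1 vertebral column peak in 1 gene (282 of the 2815 peaks of the list, 3.11% of all genes), and at most 5% 2 Sox9 peaks in 2 genes (17.9% and 6.81%). With the full gene records as gene bodies, chosen after seeing the data, the counts were 9, 53 and 23 peaks for vertebral column Bapx1, NIH3T3 Bapx1 and Sox9, and without Fgfr2 they were 4, 30 and 12 with either gene body. NIH3T3 summits called with vertebral column tags went from 0 to 1 with no minimum of tags (Pthlh intron 3, 7 against 0, beside 2.19% of the list) and to 3 within 500 bp (Pthlh, Mef2c and Mef2d, ratios of 2.50 to 2.60). The single vertebral column summit called in NIH3T3, and both Sox9 summits called with Bapx1 tags, were lost within the deposited peak limits (0 and 0), and local scaling left 1 of the Sox9 summits, that of Fgfr2, beside 13.3% of the list. Within 500 bp 2 Sox9 summits were called, with one of Mef2c in place of that of Hdac4. Within 1000 bp of the starts 1 gene, Mef2c, was called in NIH3T3 (33 against 20 tags, 2.31). The longer motif, TTAAGTG or CTGAGTG, was at 1 of 5 vertebral column summits (12.4% of the list, 3.29% of its flanks) and 8 of 32 NIH3T3 summits (38.7% and 3.31%). Intervals of starts that held 1 as reported and not within 1000 bp were those of Fgfr2 in both Bapx1 pairs, and Mef2c, Trps1 (1.53, interval 1.03 to 2.28) and Pthlh (0.408, interval 0.148 to 0.976) in NIH3T3. At Fgfr2 the wider window takes in the summit of its vertebral column peak. Few tags limit all of these: most summits held under 20 ChIP tags.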
